A study of Mus musculus with 24 samples.

Results

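The genes described here are the G2 and mitosis genes of cultured mouse muscle precursors, 51 genes listed by symbol for their part in the last stages of the cell cycle. A member was found on the arrays when the annotation of a probe set gave its symbol and no other, and 50 of the 51 were found that way among 18193 genes in all. Ccnb1, which encodes cyclin B1, was named alone by no probe set of the annotation used and is not analysed here. Where a gene had several probe sets, the one with the highest mean over the 12 cultures was used, with the array design called MA taken before the design called MB. Of the 50 members, 48 passed the filter on low values. Of these, 3 (Cdc25c, Ndc80 and Ncapg) had a mean over both DM groups under the filter and passed through their level in GM. In DM at 5 mM glucose alone, Kif2c (22.2) and Bub1 (34.8) also averaged under the filter of MA (35.5).

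Cells that divide pass from G2 into mitosis when cyclins A and B activate the kinase Cdk1. The spindle then attaches to chromosomes at kinetochores, a checkpoint holds anaphase until all are attached, and the anaphase-promoting complex with Cdc20 marks securin and cyclin B for destruction. Most of these genes are transcribed only late in the cycle. Their promoters often carry a CHR, the cell cycle genes homology region, and CCAAT boxes bound by NF-Y. In resting and differentiated cells the DREAM complex binds such promoters and represses them, and in dividing cells MuvB with B-Myb and then FoxM1 activates them. Myoblasts leave the cell cycle for good when they become myotubes, so a low level of these transcripts is a common sign of that exit.

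The RNA came from C2C12, an established line of mouse myoblasts, the dividing precursors that fuse into muscle fibres, and was read on oligonucleotide arrays. The 4 groups were DM with 5 mM glucose, DM with 25 mM glucose, GM with 5 mM glucose and GM with 25 mM glucose, with 3 cultures in each. DM and GM are given in the labels only as abbreviations, which in this line commonly stand for differentiation and growth medium. The stated aim of the series concerned calorie restriction and the differentiation of myoblasts, and the time in culture and the rest of each medium are not given in the sources used here. Each culture was read on both designs, and values are the linear intensities deposited by the authors. No label says that the cultures of a group were started separately, so the p-values rest on a spread between samples that may be technical, and the number of arrays limits the precision.

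The summed intensity of 9 muscle lineage markers was 19082 to 37448 in the 6 DM cultures, against 3187 to 3758 in the 6 GM cultures. All 9 passed the filter on low values, which used the mean over all cultures. Myog, Myh3 and Acta1 had group means of only 6.33 to 23.3 in GM, under the filter of MA (35.5). These markers passed through their level in DM. Of markers of other cell types, 1 of 4 for blood, 1 of 4 for endothelium and 0 of 3 for adipocytes passed the filter. Their sum was 64.7 to 130.1 in DM and 134 to 217 in GM for 4 blood markers, 80.4 to 119 in DM and 66.5 to 139 in GM for 4 endothelial markers, and 26.7 to 64.3 in DM and 26.4 to 101 in GM for 3 adipocyte markers. The part of these sums in the results was not tested. The control for 18S ribosomal RNA separated 4 cultures with low readings (DM_5mM-2, DM_25mM-3, GM_5mM-1 and GM_5mM-2) from the other 8. Each DM group thus held 1 low-18S culture, whereas GM at 5 mM held 2 and GM at 25 mM none. The 3' to 5' ratio of the Actb control on MA, a sign of RNA quality, moved with this in both media, and most in GM. Its log2 was -0.04, -0.05 and 0.38 in GM at 5 mM, against 0.34 to 0.55 in GM at 25 mM. In DM the low-18S culture of each group was also the lowest. At 5 mM it had 0.10 against 0.37 and 0.18, and at 25 mM 0.12 against 0.18 and 0.16. Values within the high-18S cultures are therefore given beside the glucose results.

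RefSeq promoters of GRCm38.p6, each 250 bases before to 50 after an annotated start, were matched by symbol for 42 of the 51 genes, 45 promoters in all. For some genes, such as Pttg1, the start used lies inside the span of the gene. The CHR was searched as TTTGAA or TTCGAA and the CCAAT box as CCAAT, both on either strand. A CHR was present in 35 of the 45 promoters (77.8%), against 19.2% of all 32851 promoters. A CCAAT box was present in 37 of them (82.2%), against 37.4% of all promoters. Both were found in 32 member promoters (71.1%), against 7.52% of all. In no member promoter did a CHR share a base with a CCAAT box. Within the last 50 bases before the start a CHR began in 11 member promoters (24.4%), against 2.97% of all. These matches describe letters and not bound sites.

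Shown here are the 110 bases before the start of 6 members whose promoters hold both elements in that stretch, written 5′ to 3′ on the gene's strand with each CHR and CCAAT match in capitals. Espl1, Cdk1, Top2a and Cdc20 were taken as the brightest such members on the arrays (a rule of choice, since probe sets cannot be compared in level), Ube2c as the member with the largest medium difference at 5 mM glucose on the scale of log2(intensity + 20), and Bub3 as the one with the smallest. They are Espl1 at chr15:102296183-102296292 on the plus strand, Cdk1 at chr10:69352913-69353022 on the minus strand, Top2a at chr11:99024190-99024299 on the minus strand, Cdc20 at chr4:118437344-118437453 on the minus strand, Ube2c at chr2:164769819-164769928 on the plus strand and Bub3 at chr7:131560260-131560369 on the plus strand (GRCm38.p6).
Espl1: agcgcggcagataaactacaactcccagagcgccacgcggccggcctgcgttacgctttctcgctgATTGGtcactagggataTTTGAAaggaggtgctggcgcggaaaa
Cdk1: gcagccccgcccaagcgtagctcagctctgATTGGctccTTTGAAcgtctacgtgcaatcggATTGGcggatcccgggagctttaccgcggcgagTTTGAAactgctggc
Top2a: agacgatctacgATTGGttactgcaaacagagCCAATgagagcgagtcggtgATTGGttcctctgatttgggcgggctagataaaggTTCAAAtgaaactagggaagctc
Cdc20: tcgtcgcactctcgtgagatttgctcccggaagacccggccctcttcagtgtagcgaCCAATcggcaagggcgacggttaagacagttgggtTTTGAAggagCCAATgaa
Ube2c: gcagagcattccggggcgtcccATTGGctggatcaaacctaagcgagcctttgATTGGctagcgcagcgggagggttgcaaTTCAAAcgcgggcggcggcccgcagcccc
Bub3: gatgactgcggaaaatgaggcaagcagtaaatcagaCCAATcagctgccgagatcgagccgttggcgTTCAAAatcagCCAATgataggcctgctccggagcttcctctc
The CHR nearest the start begins 15 to 43 bases before it in the 6 promoters, and the next CCAAT box upstream begins 17 to 35 bases further out. In Bub3, which did not pass the test between the media at either glucose level, these distances are 43 and 31 bases, and in Ube2c they are 29 and 28. Promoters of Pttg1, Birc5, Nuf2, Nusap1 and Mad2l1, which were all lower in DM, held neither element in the 300 bases searched. For Pttg1 those bases (chr11:43425932-43426231, minus strand) lie inside the gene's span of 43420244 to 43427463. The bases around the outer end of Pttg1 were not searched.

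The members were far lower in DM than in GM at both glucose levels. At 25 mM glucose 45 of 48 tested members were lower in DM and 0 higher, with a median log2 difference of -1.47, and at 5 mM 47 of 48 were lower and 0 higher, with a median of -1.98. A gene was called when limma's Benjamini-Hochberg adjusted p was under 0.05, and log2 differences are on the scale of log2 of the intensity plus 20. By the same test 16.7% of all 12135 tested genes were lower in DM at 25 mM and 14.2% at 5 mM, where the median difference over all genes was -0.11 and -0.04. The level left in DM, as a share of the mean intensity in GM, had a median over members of 32.5% at 25 mM (range 14.3% to 71.7%) and 22.2% at 5 mM (5.94% to 92.2%). In RNA of whole cultures, fewer dividing cells and less RNA per cell cannot be told apart.

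Averaged over the 48 members on the log2 scale, the level per culture corresponded to an intensity of 91.0, 95.7 and 90.3 in the 5 mM DM cultures and 140.3, 151 and 149 in the 25 mM DM cultures. In the GM cultures it was 456, 453 and 422 with 5 mM and 446, 409 and 399.7 with 25 mM glucose. The 4 groups thus formed 3 levels, with the DM cultures at 5 mM lowest, those at 25 mM above them without overlap, and the 6 GM cultures highest with the glucose levels overlapping. The heat map of members by culture shows the same 3 levels in most of the roles.

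**Figure D1:**
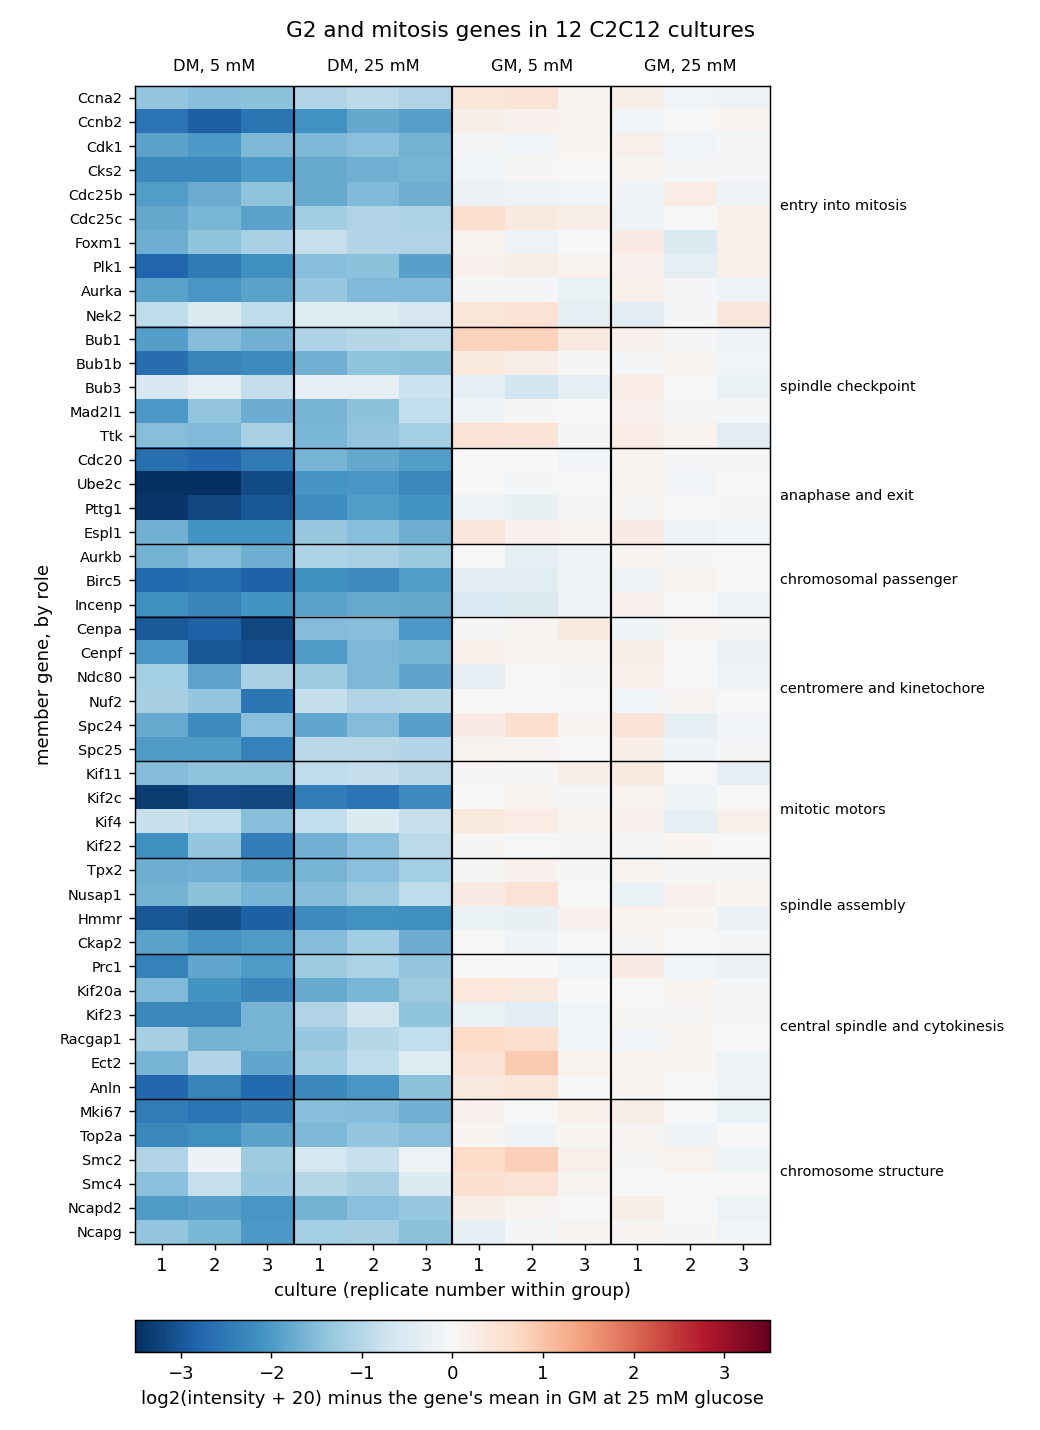
Each row is 1 of the 48 tested members, grouped by role, and each column 1 culture. Colour gives log2(intensity + 20) minus the gene's mean in GM at 25 mM glucose, on a scale from -3.5 to 3.5. The DM columns are blue in nearly all rows and deeper at 5 mM than at 25 mM, and the rows of Bub3 and Nek2 are the palest.

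The genes that start mitosis were lower in DM almost without exception. Of 10 tested members, 9 were lower at 25 mM (median -1.51) and 10 at 5 mM (median -1.80). Cdk1, the kinase that drives entry into mitosis and the brightest of this role, read 328, 298 and 408 in the 5 mM DM cultures, 412, 449 and 389 in the 25 mM DM cultures, 1205, 1174 and 1325 in the 5 mM GM cultures, and 1422, 1187 and 1197 in the 25 mM GM cultures. All 6 DM cultures lay below all 6 GM cultures, by a log2 difference of -1.56 (SE 0.13) at 25 mM (adjusted p = 4.71e-07) and -1.79 (SE 0.13) at 5 mM (adjusted p = 1.19e-07). The cyclins Ccnb2 and Ccna2, partners of Cdk1, kept 24.1% and 48.2% of their GM intensity in DM at 25 mM and 12.1% and 27.6% at 5 mM. Cks2, a small Cdk-binding protein, differed by -1.68 and -2.15 at 25 and 5 mM, and Plk1, the polo kinase that promotes spindle assembly and activates Cdk1, by -1.61 and -2.62 at 25 and 5 mM. Aurka, the centrosomal Aurora kinase, differed by -1.47 and -1.81 at 25 and 5 mM. Of the phosphatases that activate Cdk1, Cdc25b differed by -1.67 at 25 mM and -1.55 at 5 mM, and Cdc25c by -1.13 and -2.12 at 25 and 5 mM, its intensity averaging 6.02 ± 2.59 in DM at 5 mM and 93.3 ± 13.7 in GM at 5 mM (SD, n = 3 each). Foxm1, the transcription factor that activates many of these genes, differed by -0.95 (adjusted p = 0.00190) and -1.41 (adjusted p = 8.30e-05).

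Nek2, a centrosomal kinase, was the member of this role with the smallest difference. It read 30.8, 47.5 and 31.0 with 5 mM and 50.9, 50.3 and 43.2 with 25 mM glucose in DM, against 107, 114 and 56.6 with 5 mM and 53.6, 72.6 and 104 with 25 mM glucose in GM. At 25 mM its groups differed by -0.47 (SE 0.25), which did not pass the test (adjusted p = 0.161), and at 5 mM by -0.97 (SE 0.25) (adjusted p = 0.00965). The 2 GM cultures at 5 mM with a low 18S control were the highest of that group, and without GM_5mM-1 or GM_5mM-2 the call at 5 mM was lost (highest adjusted p = 0.0550). Within the high-18S cultures it was -0.59 (adjusted p = 0.317). Of the MB probe sets of Nek2, the brightest gave -1.08 at 25 mM (adjusted p = 0.0555) and -2.38 at 5 mM (adjusted p = 6.60e-05), and another gave -0.64 and 0.22, neither called.

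The spindle checkpoint genes were lower with 1 exception. Bub1, Bub1b, Mad2l1 and Ttk, which hold anaphase until the chromosomes are attached, passed the test at both glucose levels, with 43.5%, 32.3%, 38.9% and 29.9% of the GM intensity left in DM at 25 mM and 13.3%, 13.3%, 29.1% and 23.7% at 5 mM. Bub1, the kinase that recruits other checkpoint proteins, read 26.6, 42.4 and 35.3 in the 5 mM DM cultures, 64.9, 69.1 and 73.6 in the 25 mM DM cultures, 292, 294 and 201 in the 5 mM GM cultures, and 178, 155 and 145 in the 25 mM GM cultures. Its groups did not overlap between media, and the 3 GM cultures at 5 mM lay above the 3 at 25 mM. Bub3, which brings Bub1 and Bub1b to kinetochores and is the brightest of this role, read 497, 612 and 413 with 5 mM and 604, 586 and 433 with 25 mM glucose in DM, against 589, 465 and 597 with 5 mM and 892, 737 and 636 with 25 mM glucose in GM. The ranges of DM and GM overlapped at 5 mM and did not at 25 mM, where GM was higher. Its difference was -0.47 (SE 0.18) at 25 mM (adjusted p = 0.0526) and -0.12 (SE 0.18) at 5 mM (adjusted p = 0.668), with a 95% interval at 5 mM of -0.50 to 0.26. A second MA probe set of Bub3 gave -0.32 and -0.23 and an MB one -0.40 and -0.25, at 25 and 5 mM, none of them called. At 5 mM glucose Bub3 was the single member tested that did not pass.

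Genes of anaphase and mitotic exit had some of the largest differences. All 4 were lower at both glucose levels, with a median of -1.92 at 25 mM and -2.82 at 5 mM. Pttg1 (chromosome 11, 43420244 to 43427463, GRCm38.p6), which encodes securin, the inhibitor of separase, was the brightest of them and read 377, 448 and 504 in the 5 mM DM cultures, 921, 1068 and 978 in the 25 mM DM cultures, 3724, 3535 and 4008 in the 5 mM GM cultures, and 4346, 4208 and 4041 in the 25 mM GM cultures. DM was 4.19-fold lower than GM on the scale of intensity plus 20 at 25 mM (adjusted p = 2.83e-08) and 8.20-fold lower at 5 mM (adjusted p = 7.43e-10). Ube2c, the ubiquitin-conjugating enzyme of the anaphase-promoting complex, read 75.0, 81.0 and 109 with 5 mM and 251, 258 and 219.8 with 25 mM glucose in DM, against 1101, 1064 and 1104 with 5 mM and 1226, 1042 and 1101 with 25 mM glucose in GM. No group of one medium overlapped one of the other, and the DM cultures at 5 mM lay below those at 25 mM. Its difference of -3.37 (SE 0.13) at 5 mM (adjusted p = 2.03e-10) was the largest among the members on this scale, leaving 8.11% of the GM intensity in DM, against 21.6% at 25 mM. Without the scale's added 20, Kif2c and Cdc25c kept less at 5 mM, 5.94% and 6.45%, and with a pseudocount of 1 their differences were -4.02 and -3.80 beside -3.63 for Ube2c. Kif2c (22.2) and Cdc25c (6.02) averaged under the filter of MA in DM at 5 mM, so this order is uncertain. Cdc20, the activator of the complex, differed by -1.78 (SE 0.12) at 25 mM and -2.60 (SE 0.12) at 5 mM, and Espl1, which encodes separase and was read on MB, by -1.50 (SE 0.20) and -2.17 (SE 0.20) at 25 and 5 mM.

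The plot of intensity by culture shows 6 of the members.

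**Figure D2:**
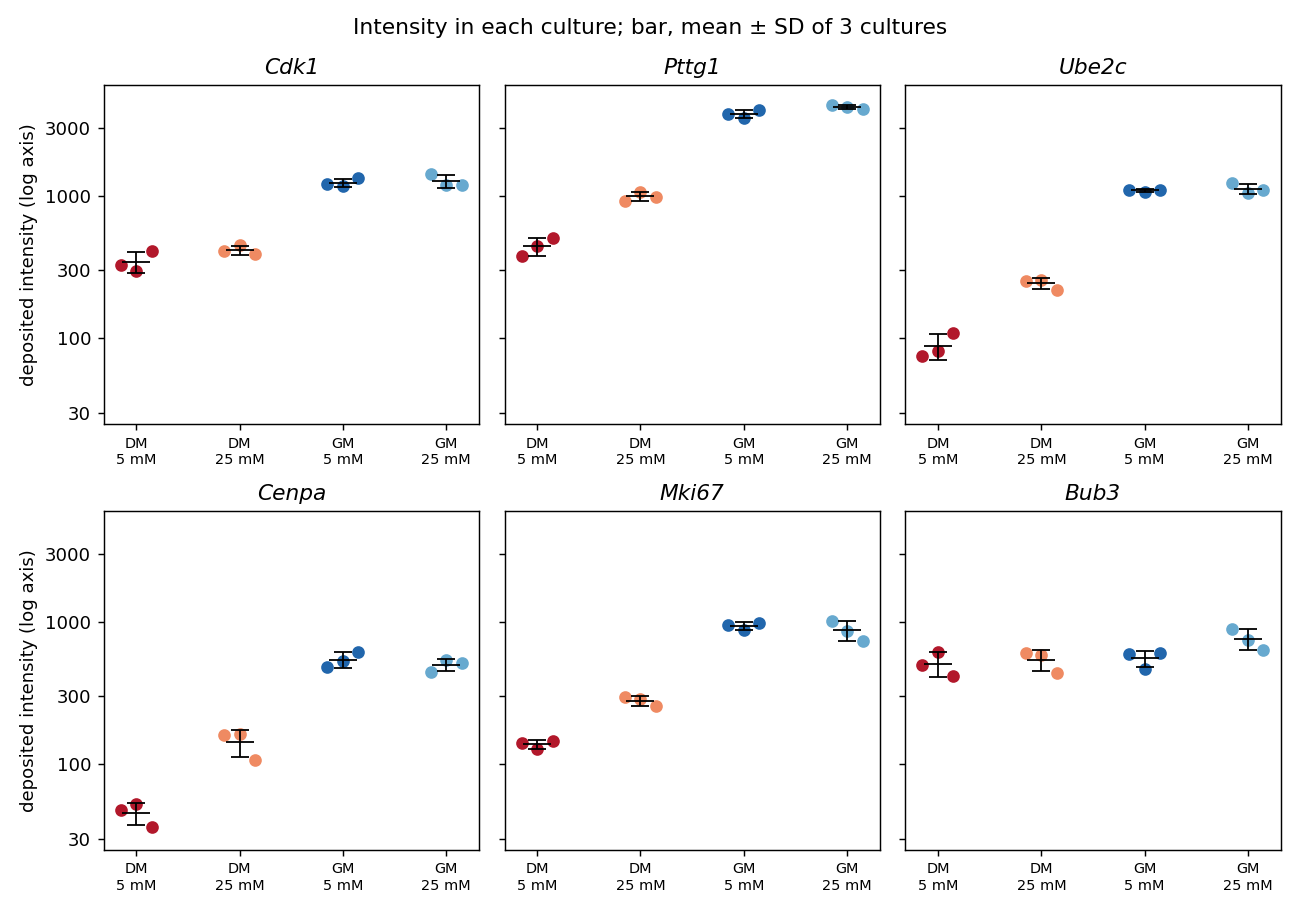
Deposited intensity, on a log axis shared by all panels, of Cdk1, Pttg1, Ube2c, Cenpa, Mki67 and Bub3 in each of 12 cultures (points), with the mean and SD of the 3 cultures of a group (bars). In 5 of the panels all DM cultures lie below all GM cultures, and in 4 of these, all except Cdk1, the 5 mM DM cultures lie below the 25 mM DM cultures, while Bub3 stays between 413 and 892 throughout.

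The chromosomal passenger genes, whose products correct wrong attachments at centromeres, were lower in all 3 cases at both glucose levels. Birc5, which encodes survivin, was the brightest and read 117, 125 and 108 in the 5 mM DM cultures, 186, 177 and 214 in the 25 mM DM cultures, 688, 676 and 777 in the 5 mM GM cultures, and 805, 958 and 903 in the 25 mM GM cultures. The media did not overlap, and the difference was -2.10 (SE 0.12) at 25 mM (adjusted p = 9.99e-09) and -2.42 (SE 0.12) at 5 mM (adjusted p = 2.23e-09). The kinase Aurkb differed by -1.18 and -1.47 at 25 and 5 mM and its scaffold Incenp by -1.81 and -1.78 at 25 and 5 mM. By its chosen probe set Incenp was thus among the 4 members whose medium difference was no larger at 5 mM, the others being Bub3, Cdc25b and Ndc80. Its other tested MA probe sets did not share 1 order. One gave -1.18 and -1.86 at 25 and 5 mM and was called lower with glucose in DM (-0.87, adjusted p = 0.0266). The other gave -1.46 and -1.06 and was not called with glucose in DM (0.34, adjusted p = 0.755).

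All 6 tested centromere and kinetochore genes were lower in DM at both glucose levels, with medians of -1.62 and -2.15. Cenpa (chromosome 5, 30666877 to 30674837), the histone H3 variant that marks centromeres, read 47.5, 52.1 and 36.3 with 5 mM and 159.9, 162 and 107 with 25 mM glucose in DM, against 479, 531 and 614 with 5 mM and 441, 533 and 514 with 25 mM glucose in GM. It differed by -1.68 (SE 0.17) at 25 mM (adjusted p = 2.43e-06) and -3.10 (SE 0.17) at 5 mM (adjusted p = 5.03e-09), without overlap between any DM and GM culture. Of the Ndc80 complex, which holds microtubules at the kinetochore, Ndc80 itself read 42.2, 19.5 and 44.6 in the 5 mM DM cultures, 38.9, 27.4 and 19.8 in the 25 mM DM cultures, 97.1, 119.9 and 127 in the 5 mM GM cultures, and 142, 122 and 104 in the 25 mM GM cultures. Here DM at 5 mM and DM at 25 mM overlapped, and the differences were -1.56 and -1.31 at 25 and 5 mM. Its subunit Spc25 read 44.6, 44.2 and 29.9 with 5 mM and 110.3, 109.6 and 105 with 25 mM glucose in DM, against 259, 250.1 and 235 with 5 mM and 278, 209 and 223 with 25 mM glucose in GM, a difference of -0.99 (SE 0.16) at 25 mM and -2.18 (SE 0.16) at 5 mM. In DM the 3 cultures at 5 mM all lay below the 3 at 25 mM. Spc24, the partner of Spc25 and the brightest of this role, on MB, read 351, 252 and 435 in the 5 mM DM cultures, 336, 421 and 318 in the 25 mM DM cultures, 1524, 1837 and 1312 in the 5 mM GM cultures, and 1714, 970.3 and 1154 in the 25 mM GM cultures. Unlike those of Spc25, the Spc24 values of the DM groups overlapped, and the medium differences were -1.75 (SE 0.24) and -2.13 (SE 0.24) at 25 and 5 mM. Nuf2, the other subunit, differed by -0.97 and -1.69 at 25 and 5 mM, and Cenpf, a large kinetochore protein, by -1.73 and -2.83 at 25 and 5 mM.

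Cenpe, a kinetochore motor, and Cenph were too dim on their MA probe sets to be tested. Cenpe averaged 7.95 ± 3.72 in DM at 5 mM, 8.56 ± 4.54 in DM at 25 mM, 47.7 ± 8.48 in GM at 5 mM and 58.3 ± 12.2 in GM at 25 mM, and Cenph 15.6 ± 6.78 in DM at 5 mM, 16.8 ± 1.16 in DM at 25 mM, 43.7 ± 13.6 in GM at 5 mM and 38.0 ± 9.53 in GM at 25 mM (SD, n = 3 each). An MB probe set of Cenpe, brighter but not chosen by the rule, was lower in DM, with a difference of -1.72 at 25 mM (adjusted p = 5.62e-06) and -2.72 at 5 mM (adjusted p = 1.22e-08).

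Mitotic motors were lower in all 4 cases at both glucose levels, over a wide range of sizes. Kif2c, which removes tubulin from microtubule ends at centromeres, was read by 3 tested MA probe sets. The brightest, an _x_at set, read 19.4, 23.9 and 23.5 with 5 mM and 51.3, 45.1 and 63.6 with 25 mM glucose in DM, against 373, 399 and 352 with 5 mM and 407, 337 and 376 with 25 mM glucose in GM. DM kept 14.3% of the GM intensity at 25 mM (-2.43 (SE 0.15), adjusted p = 1.72e-08) and 5.94% at 5 mM (-3.22 (SE 0.15), adjusted p = 1.09e-09). On the scale of log2(intensity + 20) this was the largest difference of a chosen probe set at 25 mM, but with a pseudocount of 64 those of Pttg1 and Ube2c were larger, and the other sets of Kif2c gave -0.81 and -1.58 at 25 mM and -1.03 and -2.23 at 5 mM, all called. Kif22, a chromosome-bound motor and the brightest of the role, read 93.1, 177 and 75.0 in the 5 mM DM cultures, 137, 164 and 245 in the 25 mM DM cultures, 501, 479 and 461 in the 5 mM GM cultures, and 463, 513 and 481 in the 25 mM GM cultures. Its medium groups did not overlap (-1.36 (SE 0.23) and -1.96 (SE 0.23) at 25 and 5 mM). Kif4, a motor that organises chromosome arms and the central spindle, read 85.6, 78.0 and 44.6 with 5 mM and 79.6, 110.2 and 84.2 with 25 mM glucose in DM, against 209, 199 and 176 with 5 mM and 182, 124 and 186 with 25 mM glucose in GM. Its differences of -0.72 (SE 0.21) at 25 mM (adjusted p = 0.0153) and -1.29 (SE 0.21) at 5 mM (adjusted p = 2.68e-04) were among the smallest, and at 25 mM the call was lost without DM_25mM-1, GM_25mM-1 or GM_25mM-3 (highest adjusted p = 0.0631), and also with median centring and within the high-18S cultures (highest adjusted p = 0.0778). Kif11, the motor that pushes spindle poles apart, differed by -0.90 and -1.55 at 25 and 5 mM.

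Spindle assembly genes were likewise lower in all 4 cases. Hmmr, a microtubule-bound protein of the spindle poles, read 54.1, 48.9 and 62.1 in the 5 mM DM cultures, 109.7, 116 and 115 in the 25 mM DM cultures, 487, 479 and 641 in the 5 mM GM cultures, and 622, 606 and 497 in the 25 mM GM cultures. The difference was -2.15 (SE 0.14) at 25 mM (adjusted p = 4.43e-08) and -2.88 (SE 0.14) at 5 mM (adjusted p = 2.30e-09), and the DM cultures at 5 mM all lay below those at 25 mM. Ckap2, a spindle protein and the brightest of this role, read 139, 117 and 125 with 5 mM and 181, 228 and 154 with 25 mM glucose in DM, against 549, 496 and 559.97 with 5 mM and 570.02, 567 and 536 with 25 mM glucose in GM. It differed by -1.49 and -1.92 at 25 and 5 mM, Tpx2, which activates Aurka on spindle microtubules, by -1.43 and -1.82 at 25 and 5 mM, and Nusap1, which bundles microtubules, by -1.22 and -1.84 at 25 and 5 mM.

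Genes of the central spindle and cytokinesis were lower in all 6 cases, with medians of -1.15 at 25 mM and -2.02 at 5 mM. Anln, which encodes the actin-binding scaffold anillin of the cleavage furrow and was the brightest, read 81.7, 115 and 84.8 in the 5 mM DM cultures, 125, 148 and 236 in the 25 mM DM cultures, 851, 899 and 675 in the 5 mM GM cultures, and 718, 676 and 617 in the 25 mM GM cultures. Its differences were -1.91 (SE 0.19) (adjusted p = 2.93e-06) and -2.86 (SE 0.19) (adjusted p = 5.14e-08). Ect2, the exchange factor that activates RhoA at the furrow, read 30.4, 57.3 and 24.9 with 5 mM and 48.1, 64.9 and 95.1 with 25 mM glucose in DM, against 202, 278 and 152 with 5 mM and 151, 144 and 118 with 25 mM glucose in GM. It differed by -0.84 (SE 0.26) at 25 mM (adjusted p = 0.0196) and -2.01 (SE 0.26) at 5 mM (adjusted p = 3.27e-05). The call of Ect2 at 25 mM was lost without DM_25mM-1, DM_25mM-2, GM_25mM-1 or GM_25mM-2 (highest adjusted p = 0.0841), and with median centring. Prc1, which bundles the central spindle, differed by -1.24 and -2.03 at 25 and 5 mM, and the motors Kif20a and Kif23 by -1.54 and -1.06 at 25 mM and -2.20 and -1.82 at 5 mM. Racgap1, the partner of Kif23 in centralspindlin, differed by -1.06 and -1.88 at 25 and 5 mM.

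Of 6 genes of chromosome structure, 5 were lower at 25 mM and 6 at 5 mM. Top2a, which untangles sister DNA and was the brightest, read 237, 262 and 316 in the 5 mM DM cultures, 394, 464 and 420.4 in the 25 mM DM cultures, 1289.7, 1119 and 1272 in the 5 mM GM cultures, and 1296, 1128 and 1241 in the 25 mM GM cultures. The differences were -1.48 (SE 0.13) and -2.10 (SE 0.13) at 25 and 5 mM with adjusted p = 5.48e-07 and 1.62e-08. Mki67 (chromosome 7, 135689784 to 135716450), the coat of mitotic chromosomes known as the proliferation marker Ki-67, kept 32.2% of the GM intensity in DM at 25 mM and 14.8% at 5 mM. Condensin, which compacts chromosomes, was represented by Smc2, Smc4, Ncapd2 and Ncapg, and its subunits Ncapd2 and Ncapg differed by -1.48 and -1.26 at 25 mM and by -2.08 and -1.58 at 5 mM. Smc2 read 112, 216 and 96.5 with 5 mM and 158, 137 and 222 with 25 mM glucose in DM, against 413, 469.6 and 289 with 5 mM and 261, 276 and 227 with 25 mM glucose in GM. At 25 mM its difference of -0.53 (SE 0.25) did not pass the test (adjusted p = 0.110), and at 5 mM it was -1.39 (SE 0.25) (adjusted p = 6.41e-04). Its partner Smc4 passed at both, with -0.87 and -1.58 at 25 and 5 mM. In GM at 5 mM the low-18S cultures 1 and 2 were the highest for both Smc2 and Smc4, and within the high-18S cultures the difference of Smc2 at 5 mM was -1.31 (adjusted p = 0.00102).

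The medium difference was larger at 5 mM than at 25 mM glucose for 44 of the 48 members, as the plot of one difference against the other shows. These 2 differences share no culture.

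**Figure D3:**
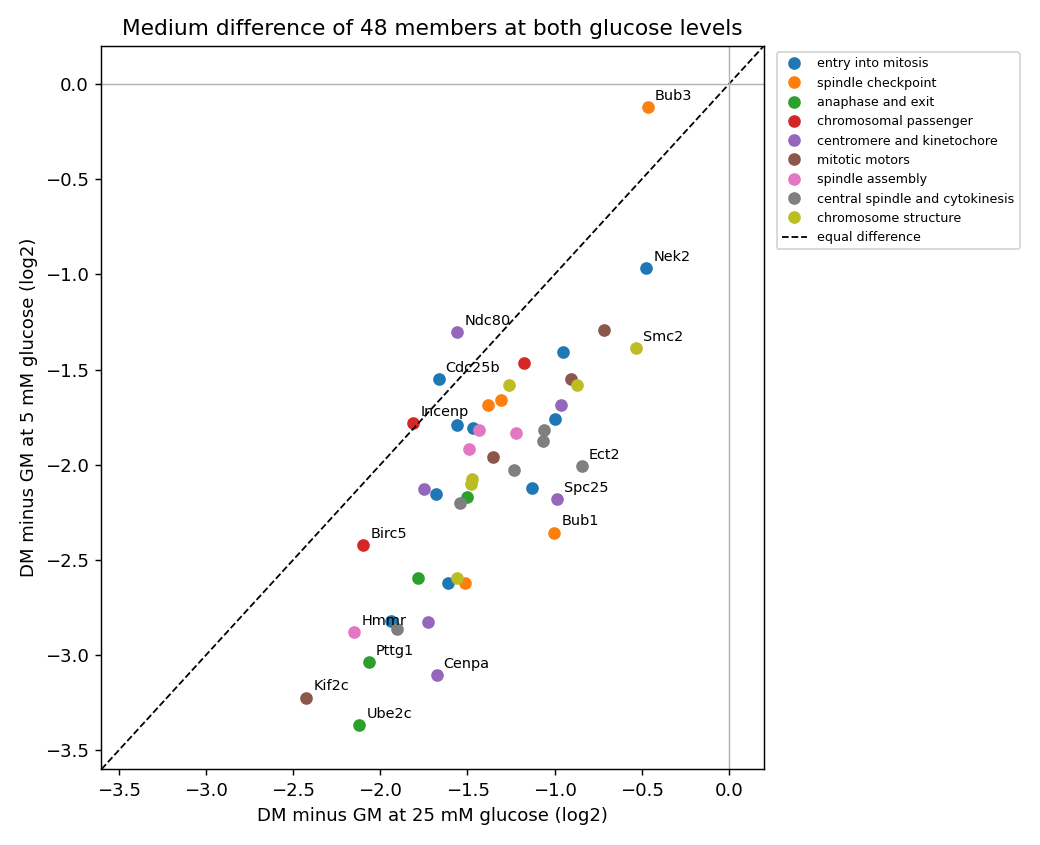
Each point is 1 of 48 members, coloured by role, with its log2 difference DM minus GM at 25 mM glucose on the x axis and at 5 mM on the y axis. The dashed line marks equal differences, below which 44 members lie, and Bub3, Ndc80, Cdc25b and Incenp lie above it.

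Lower glucose in DM went with lower mitotic transcripts. With 5 mM against 25 mM glucose in DM, 17 of 48 members were lower and 0 higher (median -0.50, range -1.31 to 0.17), whereas 0.964% of all tested genes were lower, 117 of 12135, and the median over all genes was 0.01. The 17 members were 14.5% of the genes called lower. All except Ndc80 had a negative difference, beside 48.4% of all tested genes. Of the 48, 33 had an unadjusted p under 0.05, beside 1191 of the 12135 genes in either direction. The intensity at 5 mM had a median over members of 64.1% of that at 25 mM.

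Ube2c had the smallest adjusted p among the members, with a difference of -1.29 (SE 0.13) (adjusted p = 1.57e-04), the 3 cultures of each group as given above lying apart. Cenpa differed by -1.31 (SE 0.17) (adjusted p = 8.20e-04), followed by Pttg1 with -1.13 (SE 0.13) (adjusted p = 3.92e-04) and Spc25 with -1.12 (SE 0.16) (adjusted p = 0.00143). Mki67 read 140.3, 127 and 145 in the 5 mM DM cultures, against 294, 287 and 254 in the 25 mM DM cultures, a difference of -0.92 (SE 0.13) (adjusted p = 0.00148). Cdc20 read 171, 156 and 195 in the 5 mM DM cultures, against 368, 326 and 287 in the 25 mM DM cultures, a difference of -0.84 (SE 0.12) (adjusted p = 0.00220). By role, the members lower at 5 mM in DM were 3 of 10 genes of mitotic entry (Ccnb2, Cks2 and Plk1), Bub1b of the 5 checkpoint genes, 3 of the 4 genes of anaphase (Cdc20, Ube2c and Pttg1) and Birc5 of the 3 passenger genes. They were also 3 of 6 kinetochore genes (Cenpa, Cenpf and Spc25), Kif2c of the 4 motors, Hmmr of the 4 spindle genes, Prc1 and Kif23 of the 6 genes of cytokinesis, and Mki67 and Top2a of the 6 of chromosome structure. Cdk1 itself had -0.27 (SE 0.13) and did not pass (adjusted p = 0.517). Neither did Ccna2 (-0.43, adjusted p = 0.159), Cdc25b (-0.03), Ttk (-0.01), Spc24 (-0.07), Bub3 (-0.09) or Foxm1 (-0.47). For Ccna2 this depended on the probe set, since a second MA set, nearly as bright, was called lower (-0.64, adjusted p = 0.0254).

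Some of these calls rested on few cultures. Without DM_5mM-1 limma called 10 members lower, and without DM_25mM-1 or DM_25mM-2 it called 11, with 2 cultures then left in that group. Cdc20, Ube2c, Pttg1, Mki67, Ccnb2, Hmmr, Bub1b, Cenpa and Spc25 stayed called without any 1 of the 12 cultures. Of these 9, 4 (Cdc20, Ube2c, Mki67 and Spc25) also stayed called in all other settings tried. Ube2c and Mki67 had a single probe set and Spc25 a single tested one, so the settings of probe set choice reused their values. Cdc20 had other sets on MA but none on MB. Ccnb2 and Hmmr lost the call when only the arrays compared were fitted and in the high-18S cultures, Bub1b when only the arrays compared were fitted, and Pttg1, Hmmr and Cenpa with other probe sets. The other 8 (Top2a, Cks2, Birc5, Cenpf, Prc1, Plk1, Kif2c and Kif23) each lost the call without at least 1 of them, Cenpf without 11 of 12 and Cks2 without 9. Within the low-18S pair, DM_5mM-2 against DM_25mM-3, 46 of 48 members had a value below 0 (median -0.51). This sets 1 culture against 1, the members are not replicates, and the share of all genes was not taken. Within the high-18S cultures, 2 against 2, 45 of 48 members had a value below 0 (median -0.56), where the median over all genes was 1.2e-04. With the 18S split as a block 23 members were called lower, and within the 8 high-18S cultures 9.

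In GM the same glucose comparison gave no call. Limma called 0 of 48 members in either direction, against 0.00824% of all tested genes (1 of 12135). An unadjusted p under 0.05 was found for 6 of the 48 members, beside 1157 of the 12135 genes. The median was 0.06 (range -0.44 to 0.64), with 21 members below 0 and 27 above it. The largest difference was that of Bub1, with 0.64 (SE 0.18) and adjusted p = 0.404. Smc2 (0.56), Ect2 (0.52), Racgap1 (0.39) and Smc4 (0.38) followed. In each of these 5 the low-18S cultures GM_5mM-1 and GM_5mM-2 lay above GM_5mM-3. Racgap1 read 838, 800.3 and 487 in the 5 mM GM cultures, against 491, 551 and 526 in the 25 mM GM cultures. Within the high-18S cultures, GM_5mM-3 against 3 cultures at 25 mM, 23 of 48 members had a value below 0, with a median of 0.0040, and Bub1, Smc2, Ect2, Racgap1 and Smc4 differed by 0.30, 0.17, 0.13, -0.10 and 0.08. With array weights limma called 4 members higher and 1 lower, beside 252 genes higher and 254 lower. The members nearest to a fall were Bub3 (-0.44), Incenp (-0.40) and Birc5 (-0.31), all with an unadjusted p under 0.05 and none called. For Ube2c, the member with the smallest adjusted p in DM, the difference in GM was -0.04 with a 95% interval of -0.32 to 0.24.

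The difference between the media in their glucose response was tested directly as an interaction, the glucose difference in DM minus that in GM. It was negative for 44 of 48 members (median -0.66, all genes 0.02). An unadjusted p under 0.05 was found for 30 of the 48 members, beside 1349 of the 12135 genes. Limma called 8 members lower and 0 higher, against 0.363% of all tested genes called lower (44 of 12135). Those called were Cenpa (-1.43 (SE 0.24), adjusted p = 0.0151), Bub1 (-1.35 (SE 0.25), adjusted p = 0.0288), Ube2c (-1.25 (SE 0.19), adjusted p = 0.00836), Spc25 (-1.19 (SE 0.22), adjusted p = 0.0274), Bub1b (-1.11 (SE 0.21), adjusted p = 0.0288), Mki67 (-1.04 (SE 0.18), adjusted p = 0.0211), Pttg1 (-0.97 (SE 0.19), adjusted p = 0.0331) and Ccnb2 (-0.88 (SE 0.18), adjusted p = 0.0444). Ect2 had a value of similar size, -1.16 (SE 0.36), with a larger error (adjusted p = 0.237). The glucose difference of Ube2c was -1.29 in DM beside -0.04 in GM, and that of Cenpa was -1.31 in DM beside 0.12 in GM. That of Bub1 was -0.71 in DM (adjusted p = 0.0730) beside 0.64 in GM, the value that moved with the 18S split.

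Ube2c was the single member whose interaction stayed called without any 1 culture, its adjusted p then reaching 0.0334 at most, but it was not called within the high-18S cultures (adjusted p = 0.0916). The number of members called was 1 without DM_25mM-2, 2 without DM_25mM-1, GM_5mM-1 or GM_25mM-2, 3 without GM_5mM-2, GM_25mM-1 or GM_25mM-3, 4 without DM_5mM-1, and 5 without DM_5mM-3 or DM_25mM-3. Blocking on the 18S split gave 9 and the high-18S cultures alone gave 1 (Cenpa), with 44 to 46 members negative in these fits and in every fit without 1 culture.

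**Figure D4:**
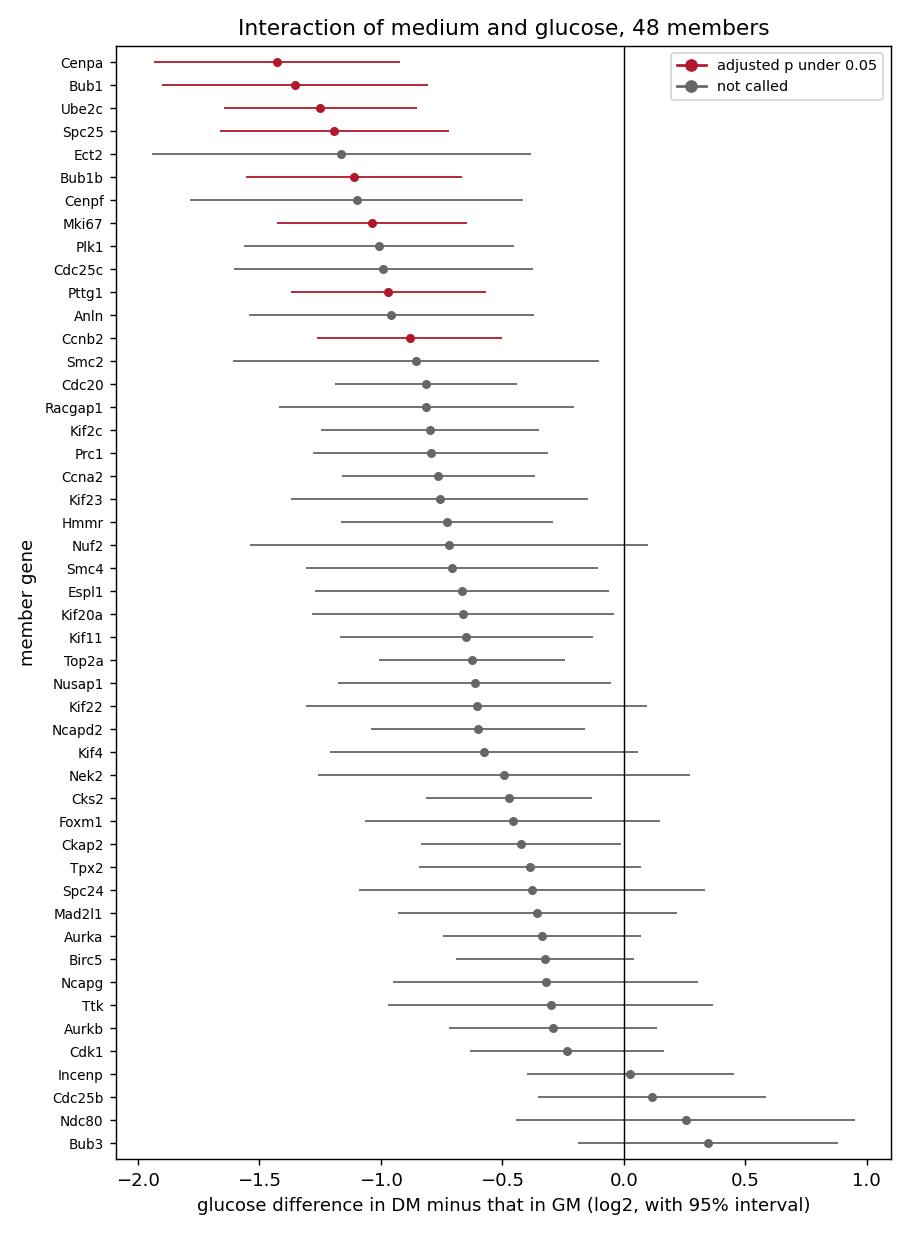
Interaction of medium and glucose for each of 48 members: the log2 glucose difference (5 mM minus 25 mM) in DM minus that in GM, with its 95% interval, sorted by size. The 8 called members are red, 44 points lie left of 0, and Incenp, Cdc25b, Ndc80 and Bub3 lie right of it.

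Across the 12 cultures, after subtraction of group means, the median correlation between pairs of members was 0.06 (range -0.96 to 0.96, 1128 pairs), where all pairs share the same arrays.

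Other cell cycle genes were described from 4 further lists. Of all 12135 tested genes, 16.7% were lower in DM at 25 mM, 14.2% at 5 mM and 0.964% with glucose in DM. Those higher in DM were 1539 at 25 mM and 1208 at 5 mM. Of 64 tested genes of a second list of mitosis genes, 38 were lower and 1 higher in DM at 25 mM (median -0.94) and 51 lower and 1 higher at 5 mM (median -1.34). Cdca8, the borealin subunit of the passenger complex, differed by -1.45 and -2.44 at 25 and 5 mM, and Cdca3, an adaptor for mitotic protein breakdown, by -1.82 and -2.34 at 25 and 5 mM. Tacc3, a spindle protein bound by Aurka, differed by -2.07 and -2.39 at 25 and 5 mM. Ube2s, the enzyme that lengthens the ubiquitin chains started by Ube2c, differed by -1.03 and -0.58 at 25 and 5 mM. The gene higher in DM was Mad1l1, a checkpoint protein (0.87 and 1.31 at 25 and 5 mM), named after its values were seen. With glucose in DM 3 were lower (median -0.27), among them Depdc1b with -2.11 (SE 0.29) and the spindle pole gene Aspm with -0.97 (SE 0.17). Their interactions were -2.38 (adjusted p = 0.0495) and -1.15 (adjusted p = 0.0446). The list's 2 interaction calls became 1 with quantile normalization, median centring and the 18S block, and 0 in the high-18S cultures.

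Subunits of the anaphase-promoting complex and cohesin, which dividing and resting cells both use, had a median nearer to 0. Of 23 tested, 7 were lower and 2 higher in DM at 25 mM (median -0.24) and 10 lower and 1 higher at 5 mM (median -0.43). The shares lower were 30.4% and 43.5%, above the 16.7% and 14.2% of all tested genes. Anapc11, the catalytic subunit, differed by -0.86 and -0.77 at 25 and 5 mM and Anapc2 by -0.78 and -0.89 at 25 and 5 mM, whereas Anapc7 was higher by 0.56 and 0.54 at 25 and 5 mM. None was called with glucose in DM (median -0.05, 0 with an unadjusted p under 0.05). With each array centred on its median, the list's median at 25 mM was -0.05.

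Regulators of G2 and M transcription, the DREAM, MuvB and E2F components beside Foxm1, were mostly not called. Of 14 tested, 3 were lower in DM at 25 mM (21.4%, all genes 16.7%) and 4 lower (28.6%, all genes 14.2%) and 1 higher at 5 mM. Mybl2, which encodes B-Myb, was lower in DM, differing by -0.89 (SE 0.23) at 25 mM, and was not called at 5 mM, with 0.09 (adjusted p = 0.822). Rbl1, which encodes p107, differed by -0.87 (SE 0.21) at 25 mM and -1.05 (SE 0.21) at 5 mM. E2f4, the E2F of the DREAM complex, was higher at 5 mM by 0.68 (SE 0.14) and had 0.06 at 25 mM (adjusted p = 0.773). None was called with glucose in DM, where Mybl2 had 0.38 (adjusted p = 0.665).

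The last list held genes of G1 and S phase, and its difference from the other lists was not tested. Of 48 tested, 30 were lower and 3 higher in DM at 25 mM (median -0.78) and 20 lower and 4 higher at 5 mM (median -0.48). With 5 mM against 25 mM glucose in DM the list's median was 0.40, with 0 lower, 2 higher and only 6 of 48 below 0, beside 47 of 48 below 0 and a median of -0.50 for the mitotic members. Cdt1, which loads the replicative helicase, read 331, 312 and 329 in the 5 mM DM cultures, against 163, 173 and 159.8 in the 25 mM DM cultures, a rise of 0.89 (SE 0.12) (adjusted p = 0.00109). E2f1, an activator of S phase genes, read 157, 158 and 179 in the 5 mM DM cultures, against 61.3, 73.0 and 68.9 in the 25 mM DM cultures, a rise of 1.07 (SE 0.17) (adjusted p = 0.00425). In both, the 3 cultures at 5 mM lay above the 3 at 25 mM. Pcna, the sliding clamp, had 0.41 (SE 0.13) (adjusted p = 0.185), and Rrm2, a subunit of ribonucleotide reductase, had -0.36 (adjusted p = 0.328). The list's median stayed between 0.35 and 0.43 with quantile normalization, median centring, the 18S block and the high-18S cultures. In the interaction Cdt1 was called higher (0.93 (SE 0.17), adjusted p = 0.0251), but with median centring or in the high-18S cultures alone no gene of the list was.

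**Figure D5:**
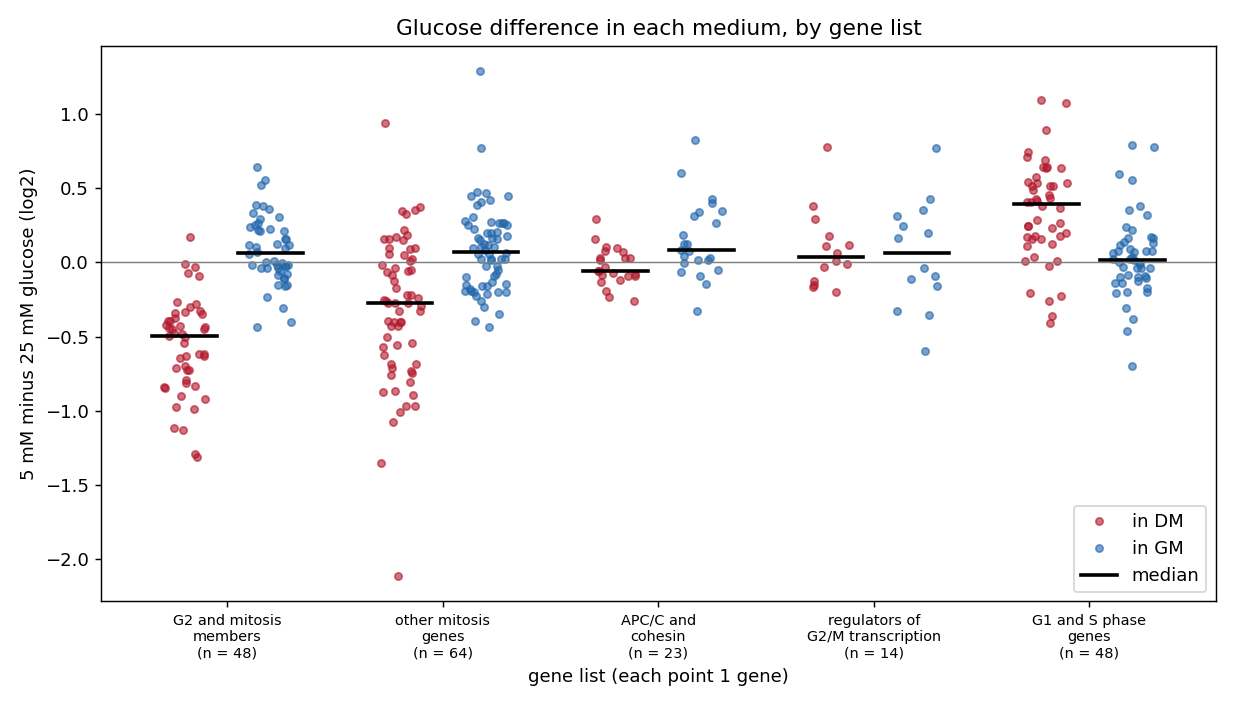
Each point is 1 gene, with its log2 difference of 5 mM minus 25 mM glucose in DM (red) and in GM (blue), and black bars give the median of a list. In DM the median is -0.50 for the 48 members and 0.40 for the 48 genes of G1 and S phase, and in GM all 5 medians lie between 0.02 and 0.08.

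The same motif search was made in the promoters of these lists. A CHR was present in 55.4% of 65 promoters of the other mitosis genes, 3 of 23 promoters of the anaphase-promoting complex and cohesin, 26.3% of 19 of the regulators and 21.2% of 52 of G1 and S phase genes, beside the 77.8% of members given above. An E2F site, searched on both strands as TTTGGCG or TTTCGCG or TTTCCCG, was present in 5 of 45 member promoters (11.1%) and in 42.3% of the G1 and S phase promoters, against 5.58% of all promoters. E2F matches were counted without regard to overlap with the other motifs. Whether a motif bears on the glucose or medium differences was not tested.

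Probe sets of a member mostly gave the same direction but differed in size. Over all 93 tested probe sets that named a member, 92 had a negative difference of DM from GM at 25 mM, 72 of them called, and 89 at 5 mM, 78 of them called, with 0 called higher in either. With glucose in DM 82 had a negative difference and 22 were called lower. The positive values between the media were all on MB and none was called. They were those of Tpx2 (0.02 and 0.03 at 25 and 5 mM), and at 5 mM alone those of Nek2 (0.22), Cenpa (0.20) and Incenp (1.66).

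With the brightest MB probe set, Top2a, Anln, Hmmr, Incenp, Ncapd2 and Tpx2 lost their call at 25 mM, with values of -1.18 to -0.02, and Anln, Hmmr, Cenpa, Incenp, Smc2, Ncapd2 and Tpx2 at 5 mM, with values of -1.38 to 1.66. A median over a gene's tested probe sets was also taken within a design, MA before MB. MB sets of a gene with tested MA sets thus did not enter it. With this median the difference at 25 and 5 mM was -1.31 and -1.68 for Hmmr and -0.77 and -0.93 for Nusap1, all called. By the same median it was -1.61 for Kif2c, -1.20 for Incenp and -1.44 for Foxm1 at 25 mM and -1.87 for Cenpf at 5 mM, also called, while Smc4 was not called at 25 mM (-0.73). The glucose call in DM was lost with that median for Hmmr (-0.41, adjusted p = 0.354), Cenpf (-0.60, adjusted p = 0.0968) and Kif2c (-0.55, adjusted p = 0.0531). Without _x_at and _s_at sets it was lost for Pttg1 (-0.73, adjusted p = 0.0599), Prc1 (-0.77, adjusted p = 0.134) and Kif2c (-0.21, adjusted p = 0.773). The MB probe set of Cenpa gave 0.17 with glucose in DM (adjusted p = 0.998). Members and probe sets were singled out in these sentences after their values were seen.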

How the data were processed

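Arrays of 2 designs (MA and MB) were read for 12 cultures, 24 arrays in all. The intensity values were deposited by the authors on a linear scale, and the steps behind them are not given in the sources used here. Values were used as log2(intensity + 20). Probe sets were tested when their mean over 12 cultures exceeded the 40th percentile of the design (35.5 on MA, 63.7 on MB). Annotation came from the platforms' tables, which can be old. Each design was fitted with limma 3.58.1 in R 4.3.3, with 4 group means over all cultures and eBayes with a trend (8 residual degrees of freedom). Tests were two-sided with Benjamini-Hochberg adjustment within a design. There were 5 comparisons: DM against GM at each glucose level, 5 mM against 25 mM in each medium, and the interaction. The main fit of MA was tested on simulated data with changes placed in DM at 25 mM. The fit of MB and the alternative fits were not tested that way.

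The members and lists were chosen with earlier results of these data known. Members were named with their fits, and values per culture are given for the brightest member of each of 9 roles, the 5 largest and 5 smallest medium differences at each glucose level and the 5 largest interactions. Of the other lists the 3 brightest and the 3 with the smallest p could be named. Alternatives covered pseudocount, filter, normalization, prior, arrays used, weights, replicate number, the 18S split, probe set choice and leaving out each culture. Depth does not apply to arrays. One probe set names Foxm1 with other genes and was left out.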

Additional observations from a re-analysis of the deposited data

Results flagged for a closer look

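For 8 members the glucose difference in DM differed from that in GM by limma's interaction test (adjusted p under 0.05), all with a more negative difference in DM. The interaction was -1.43 for Cenpa, -1.35 for Bub1, -1.25 for Ube2c, -1.19 for Spc25, -1.11 for Bub1b, -1.04 for Mki67, -0.97 for Pttg1 and -0.88 for Ccnb2 on the log2 scale. Side by side, the glucose differences in DM and in GM were -1.12 and 0.07 for Spc25, -0.90 and 0.21 for Bub1b, -0.92 and 0.11 for Mki67, -1.13 and -0.16 for Pttg1, and -0.73 and 0.16 for Ccnb2. With the 18S split as a block the interaction was -1.15 (adjusted p = 0.0191) for Bub1 and -1.33 (adjusted p = 0.00164) for Ube2c. In a fit of the 8 high-18S cultures, which include a single GM culture at 5 mM that is assumed to vary like the other groups, it was -1.08 (adjusted p = 0.386) for Bub1, -1.29 (adjusted p = 0.0916) for Ube2c and -1.86 (adjusted p = 0.0232) for Cenpa. Groups of 3 cultures are too small for a test of single outlying cultures.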

How the results depend on the processing

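The counts of members lower in DM than in GM moved by less than 1.5 times in all settings, with 37 to 47 at 25 mM and 38 to 49 at 5 mM (43 to 47 and 46 to 47 when single cultures were left out). The lower end came from taking the brightest MB probe set before MA, where 37 and 38 of 46 tested members were called at 25 and 5 mM. Members without an MB set kept their MA set there, so these counts are not of MB sets alone. Of the called members, 35 of 45 at 25 mM, 39 of 47 at 5 mM, 4 of 17 with glucose in DM and 0 of 8 in the interaction stayed called in every setting. For members with a single tested probe set, the settings of probe set choice reused the same values and could not test the call. The 17 members lower with glucose in DM became 6 when only the arrays compared were fitted, 9 with the high-18S cultures alone, and 10 to 17 when single cultures were left out. The 0 members called in GM stayed 0 in all settings except array weights, which gave 5, and were 0 without each culture. The 8 interaction calls became 5 with no filter, 4 with eBayes without a trend, 14 with array weights, 1 with the high-18S cultures alone, and 1 to 8 when single cultures were left out. With the replicate number as a replicate block the counts were 46 and 47 in DM against GM at 25 and 5 mM, 12 and 0 with glucose in DM and in GM, and 2 in the interaction, but same-numbered cultures did not deviate together (median correlation -0.03 on MA and -0.04 on MB). Reversed values, all with the brightest MB probe set and none called, were those of Incenp in DM against GM at 5 mM (1.66), Cenpa with glucose in DM (0.17) and Cenpa in the interaction (0.64). The causes were not tested.

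Centring each array on its median moved the median of all genes at 25 mM to 0.07, beside -0.11 as deposited, and the genes called lower and higher to 1247 and 2089, beside 2024 and 1539. It moved the median with glucose in GM to 0.12 and in the interaction to -0.14. The members' medians were then -1.27 and -1.95 in DM against GM at 25 and 5 mM, -0.55 and 0.18 with glucose in DM and in GM, and -0.82 in the interaction. Over all genes, the 117 lower with glucose in DM became 240 with the 18S block, 62 with the arrays compared alone and 73 in the high-18S cultures, where the 1729 lower in DM at 5 mM became 935. The 44 lower in the interaction became 9 in the high-18S cultures and 136 with array weights. For dim members such as Cdc25c and Ncapg the pseudocount understates a difference.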
